A study of Ovis aries with 8 samples.

Results

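Corticosteroid and corticotropin-releasing hormone (CRH) signalling in the hypothalamus of the fetal sheep was followed through 4 genes. They are *NR3C1*, the glucocorticoid receptor, *NR3C2*, the mineralocorticoid receptor, *HSD11B1*, the enzyme 11β-hydroxysteroid dehydrogenase type 1, and *CRHR1*, the type 1 CRH receptor. Every non-control probe of the array whose design name or description names one of these genes was taken, whatever its values. The rule gave 6 probes among 15008 on the array: 1 for *NR3C1*, 2 for *NR3C2*, 2 for *HSD11B1* and 1 for *CRHR1*. Over the whole array, 1610 probes could be given a gene name, for 991 genes in all.

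Corticosteroid hormones act on nuclear receptors that control transcription. The mineralocorticoid receptor binds cortisol with high affinity and is occupied at low hormone levels, whereas the glucocorticoid receptor is engaged as cortisol climbs and carries negative feedback to CRH and vasopressin neurons of the paraventricular nucleus. Within a cell, *HSD11B1* regenerates active cortisol from inactive cortisone and *HSD11B2* does the reverse. CRH acts on *CRHR1*, a receptor that couples to Gs and raises cyclic AMP; on pituitary corticotrophs this releases ACTH. In the fetal sheep, activity of this axis increases near term and triggers birth.

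The samples were 8 hypothalami from late-gestation fetuses of 4 twin sets, taken at 130 to 134 days of gestation. In each set 1 fetus received estradiol-3-sulfate, the sulphate conjugate of estradiol, at 1 mg per day into the lateral cerebral ventricle from an osmotic mini-pump fitted at surgery at 120 to 127 days. The labels give the infusion as 7 to 12 days in one place and 7 to 10 days in another, and call the twin controls untreated in one place and infused with saline in another; they are called vehicle here. All 8 fetuses were catheterised. The question is which transcripts differ after the infusion, with 4 fetuses per group, each of them 1 replicate on 1 array.

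Treated fetuses gave the brighter arrays: the 75th percentile of intensity ran from 1597 to 2282 after estradiol sulphate and from 981.5 to 1633 in vehicle, and the share of probes well above background from 77.0% to 83.1% and from 67.8% to 77.4%. Vehicle replicate 4 was the dimmest array and stood apart, at 50.3 on a first principal component where the other 7 lay between -22.1 and 8.62. The slide held treated arrays in its first column only and vehicle arrays in the other, so position on the slide and treatment cannot be told apart. Of 21 hypothalamus markers, 11 were named and measured, and 8 of these were well above background on all arrays; *AVP* and *CRH* have no named probe. Markers of the adjoining pituitary were also present, as 6 of 14, with the growth hormone gene *GH* not well above background on any array. The part of slide position, signal strength and tissue makeup in the results below was not tested.

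The 2 genes with a single probe sequence each are shown because everything that follows about them rests on 60 bases, as the array design lists them, 5′ to 3′. The *NR3C1* probe covers bases 2259 to 2318 of its transcript and the *CRHR1* probe bases 831 to 890 of its own, under the older name CRF1. Each sequence reads through without a stop codon in at least 1 frame.
NR3C1 probe: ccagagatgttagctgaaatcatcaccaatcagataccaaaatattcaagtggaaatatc
CRHR1 probe: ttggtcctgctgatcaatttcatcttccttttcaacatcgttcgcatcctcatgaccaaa
No other probe on the array shares a run of 20 bases with any of the 6. The *NR3C2* probes start 86 bases apart on the same design transcript and the *HSD11B1* probes 122 bases apart on theirs, so each pair reads different stretches of 1 transcript. Probes are called 1 and 2 from the brighter to the dimmer. No genome build is named for the array, so no coordinates are given.

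Of the 6 probes, 5 met the signal filter, which asked for 4 or more arrays well above background, and *NR3C1* did not. Below, a level is log2 intensity minus the 75th percentile of its array, and a difference is estradiol sulphate minus vehicle. Differences were tested with limma, and p-values were adjusted by the Benjamini-Hochberg method over all 11748 probes that passed. None of the 5 tested probes passed an adjusted p of 0.05, and none had an unadjusted p under 0.05. Over all tested probes the shares were 0% and 9.17%. None of the 5 kept its groups apart without overlap, against 5.97% of all tested probes (3.29% higher after estradiol sulphate and 2.68% lower). In whole tissue, fewer cells of a type and less RNA per cell cannot be told apart.

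**Figure D1:**
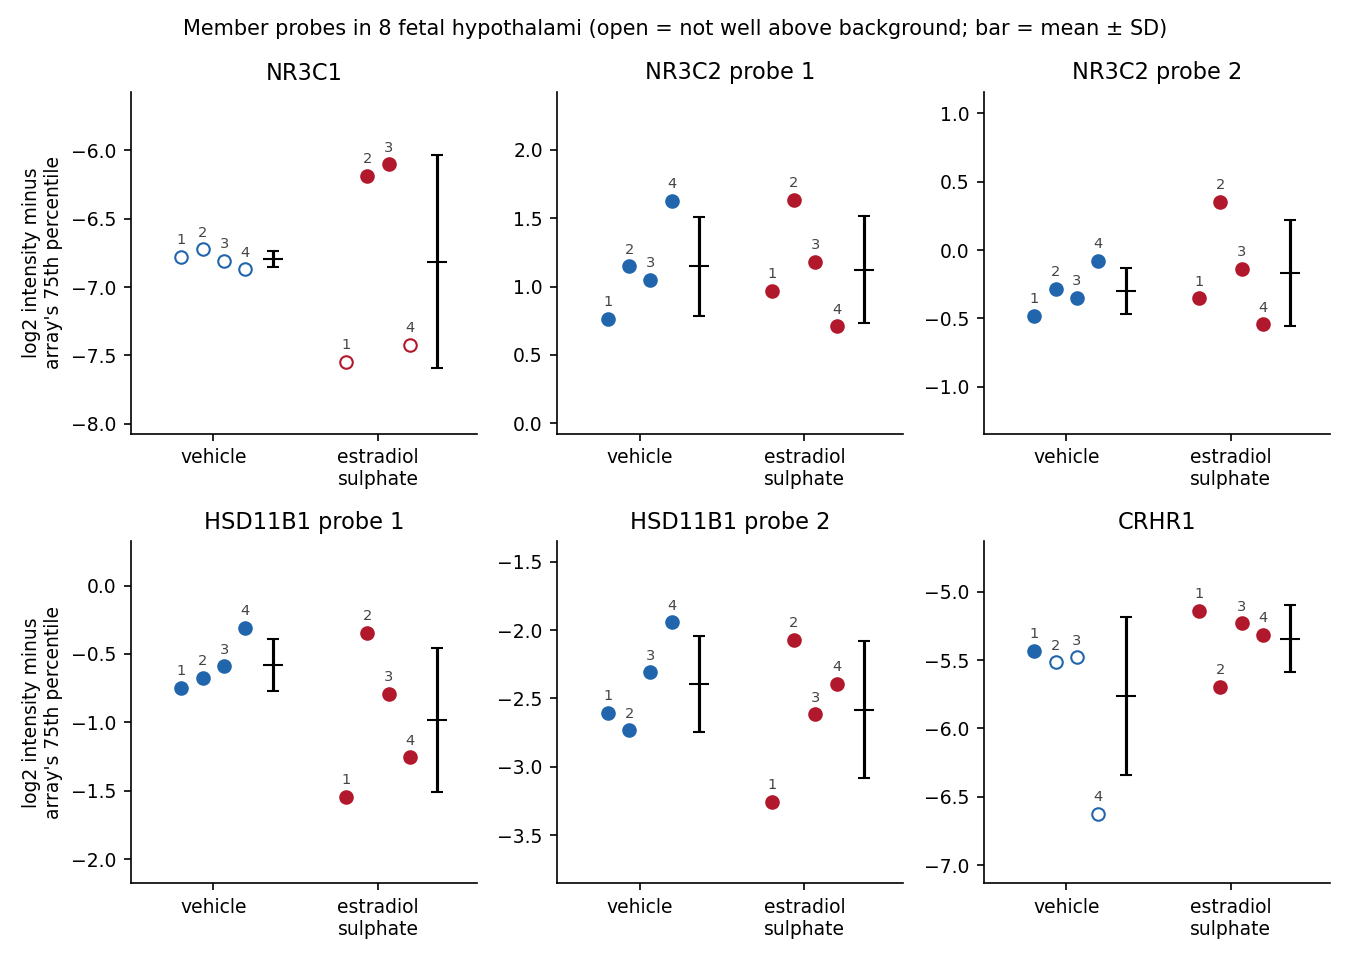
Level of each member probe (log2 intensity minus the array's 75th percentile) in 4 vehicle and 4 estradiol sulphate arrays; numbers are replicates, filled points are well above background, open points are not, and bars are the mean ± SD. The groups overlap for all 6 probes, and *NR3C1* is well above background only in estradiol sulphate replicates 2 and 3.

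The glucocorticoid receptor probe was at the edge of detection. Treated replicates 1 to 4 gave *NR3C1* intensities of 9.17, 28.5, 33.2 and 9.32, and vehicle replicates 1 to 4 gave 14.9, 14.3, 11.8 and 8.39. It was well above background only in estradiol sulphate replicates 2 and 3, and in none of the vehicle arrays. In estradiol sulphate replicate 4 and vehicle replicate 4 the deposited value is a surrogate that stands in for a signal not distinguishable from background. The scanner software's own error was 19.8% of the signal at best and 98.3% at worst.

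On the log2 scale the 4 vehicle levels of *NR3C1* lay within -6.87 to -6.72, with a mean of -6.80 ± 0.06 (SD, n = 4). The treated levels were -7.55, -6.18, -6.10 and -7.42, with a mean of -6.81 ± 0.78 (SD, n = 4). The means differed by -0.02, a value that rests mostly on signals not well above background and is not read as a comparison of the groups. Against the dimmest probe well above background on each vehicle array the treated mean was no brighter, so no fold is given. The order of the 4 vehicle levels and of treated replicates 1 and 4 is not read, since none of them was well above background. In treated replicate 1 and vehicle replicates 1 to 3 the spot was still flagged as positive and significant against background.

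**Figure D2:**
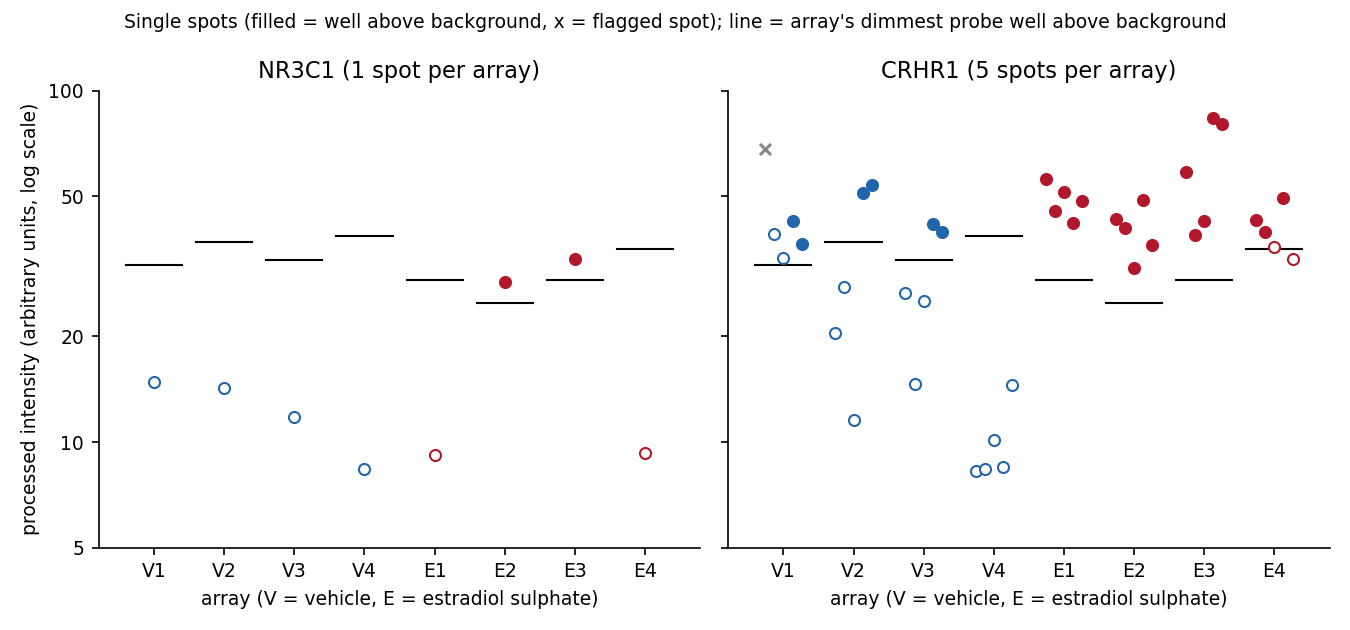
Processed intensity of every *NR3C1* spot (1 per array) and *CRHR1* spot (5 per array) on a log scale, for vehicle (V1 to V4) and estradiol sulphate (E1 to E4) arrays; filled points are well above background, crosses are spots left out by an outlier flag, and short lines mark each array's dimmest probe well above background. *NR3C1* clears the line only in E2 and E3; *CRHR1* spots are well above background in 18 of 20 treated and 6 of 19 vehicle cases.

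The mineralocorticoid receptor was the most clearly measured of the 4 genes, with both probes well above background on all 8 arrays and a scanner error of 10.0% of the signal. *NR3C2* probe 1 read 3361, 6441, 5180 and 2613 in treated fetuses 1 to 4, and 2772, 3338, 2731 and 3029 in the vehicle fetuses. Relative to the 75th percentile these were levels of 0.97, 1.64, 1.18 and 0.71 after estradiol sulphate and 0.76, 1.15, 1.05 and 1.63 in vehicle. The highest treated fetus, replicate 2, and the highest vehicle fetus, replicate 4, stood nearly level, and the ranges overlapped along most of their length.

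The group means of *NR3C2* probe 1 were 1.12 ± 0.39 and 1.15 ± 0.36 (SD, n = 4 each). Their difference was -0.02 (SE 0.23, 95% interval -0.55 to 0.51; limma adjusted p = 0.988). As a ratio of treated to vehicle intensity the interval runs from 0.683 to 1.42, so changes of that size in either direction remain compatible with these arrays. Fetuses of the same group spread widely: treated replicate 2 exceeded treated replicate 4 by more than the whole group difference of any member.

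*NR3C2* probe 2 read 1346, 2651, 2077 and 1097 after estradiol sulphate, and 1170, 1240, 1037 and 930.6 in vehicle. The levels were -0.35, 0.35, -0.14 and -0.54 in the treated fetuses and -0.48, -0.28, -0.35 and -0.08 in the vehicle fetuses. The same 2 fetuses, estradiol sulphate replicate 2 and vehicle replicate 4, were the highest of their groups on both probes. The difference was 0.13 (SE 0.19, 95% interval -0.31 to 0.57; limma adjusted p = 0.895), and the ratio interval was 0.807 to 1.48. Exact two-sided permutation tests gave p = 0.886 for probe 1 and p = 0.686 for probe 2, where the smallest p that 4 against 4 allows is 0.0286.

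*HSD11B1*, which regenerates cortisol inside cells, had the most negative difference among the members tested, without passing the test. Probe 1 read 588.3, 1632, 1319 and 669.4 in treated fetuses 1 to 4, and 973.4, 943.7, 876.3 and 792.9 in vehicle fetuses 1 to 4. The levels were -1.54, -0.35, -0.79 and -1.26 in treated fetuses against -0.75, -0.68, -0.59 and -0.31 in vehicle. Estradiol sulphate replicates 1, 3 and 4 lay below every vehicle fetus, while replicate 2 lay among them.

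The means of *HSD11B1* probe 1 were -0.98 ± 0.53 and -0.58 ± 0.19 (SD, n = 4 each), a difference of -0.40 (SE 0.25, 95% interval -0.96 to 0.15; limma adjusted p = 0.668). With each array scaled to its 75th percentile, the signal was 1.32-fold higher in vehicle, and the interval of the treated to vehicle ratio was 0.515 to 1.11. The exact two-sided permutation test gave p = 0.200. Without estradiol sulphate replicate 2 the difference was -0.62, with a limma adjusted p of 0.838, and without replicate 1 it was -0.22, with a limma adjusted p of 0.903; across all alternatives this probe's adjusted p ran from 0.551 to 0.903.

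*HSD11B1* probe 2 read 179.5, 493.7, 372.8 and 304.1 after estradiol sulphate, and 268.7, 226.6, 266.7 and 255.0 in vehicle. Its levels were -3.26, -2.07, -2.61 and -2.39 in the treated fetuses, against -2.60, -2.73, -2.31 and -1.94 in vehicle. Only estradiol sulphate replicate 1 lay below every vehicle fetus here, so the pattern of probe 1, with 3 treated fetuses below, did not recur on the other stretch of the transcript. The difference was -0.19 (SE 0.26, 95% interval -0.78 to 0.41; limma adjusted p = 0.882), and the exact two-sided permutation test gave p = 0.571. The difference reached 0.04 without estradiol sulphate replicate 1 and 0.06 with array quality weights, so its sign was not stable.

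The opposing enzyme *HSD11B2*, which inactivates cortisol, was named on the array by a pair of probes that share 59 of their 60 bases. Neither was well above background on any of the 8 arrays. Its levels therefore have no order, and the balance between the cortisol-forming and cortisol-removing enzymes was not detectable here. It lies outside the naming rule and is given for its role beside *HSD11B1*.

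*CRHR1* was dim, and was measured by 5 spots of 1 probe on each array. The mean of its spots was 48.7, 40.05, 60.8 and 40.2 in treated fetuses 1 to 4, and 37.9, 32.9, 29.6 and 9.96 in vehicle fetuses 1 to 4. The levels were -5.14, -5.69, -5.23 and -5.31 after estradiol sulphate and -5.43, -5.52, -5.48 and -6.62 in vehicle. The groups overlapped, and the order among vehicle replicates 2, 3 and 4 carries no meaning, since the gene was not well above background in them.

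The *CRHR1* means were -5.34 ± 0.24 and -5.76 ± 0.57 (SD, n = 4 each). The difference was 0.42 (SE 0.27, 95% interval -0.19 to 1.02; limma adjusted p = 0.688). Against each vehicle array's dimmest probe well above background, or the gene's own signal where that was higher, the treated mean was no brighter, so no fold is given. The exact two-sided permutation test gave p = 0.229. The gene passed the filter through its treated arrays, being well above background on all 4 of them and on only 1 vehicle array, so its presence among the tested probes is tied to the group that is higher.

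Single *CRHR1* spots were well above background in 18 of 20 cases on the treated arrays. In vehicle 6 of 19 were, namely 2 of 4 in replicate 1, 2 of 5 in replicate 2, 2 of 5 in replicate 3 and 0 of 5 in replicate 4, where 2 spots held surrogate values. Taken alone, the 5 spots gave differences of 0.99, 0.60, 0.65, 0.36 and 0.01, all from the same RNA on the same arrays. The first leaves out vehicle replicate 1, where that spot carries an outlier flag. The flagged spot, at 68.1 and well above background, was the brightest *CRHR1* spot of the vehicle arrays, and the 6 of 19 leave it out too. Without vehicle replicate 4 the difference was 0.13, and with another background correction (normexp, then the 75th percentile) it was -0.25.

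**Figure D3:**
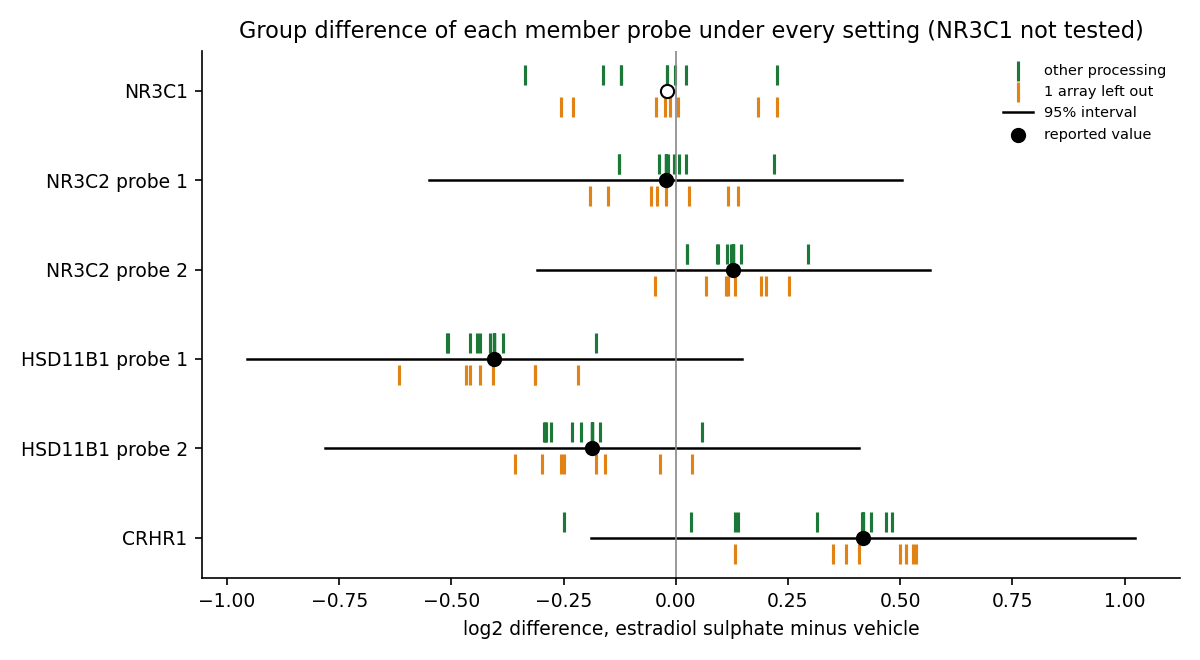
Difference of each member probe (log2, estradiol sulphate minus vehicle) as reported, with its 95% interval where tested, under other processing (upper ticks) and with 1 array left out (lower ticks). *HSD11B1* probe 1 stays below 0 in every setting, from -0.62 to -0.18; the *NR3C2* probes, *HSD11B1* probe 2 and *CRHR1* cross 0 in at least 1.

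Other genes of these pathways were read from 5 lists, by the brightest probe of each gene. Among receptors, chaperones and cofactors, 3 of 23 genes have a named probe and 2 of these were measured, *NR3C2* and *HSP90AA1*, the heat-shock protein that holds the receptors ready for hormone. *HSP90AA1* was bright, with levels of 2.77 to 3.16 after estradiol sulphate and 2.70 to 3.16 in vehicle, and a difference of -0.07 (SE 0.14; limma adjusted p = 0.933). Both measured genes were below 0, with a median of -0.04 beside 0.04 over all tested probes, and both turned above 0 under quantile and cyclic loess scaling. *NR3C1*, the third, failed the filter.

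Of 20 genes of glucocorticoid synthesis and metabolism, 7 were named and 3 measured. *CYP17A1*, a steroid 17α-hydroxylase, differed by 0.06 (SE 0.12, limma adjusted p = 0.915), and its other probe was not well above background on any array. *ABCB1*, the efflux pump of the blood-brain barrier that exports corticosteroids, differed by 0.20 (SE 0.34; adjusted p = 0.905), a value that was 0.57 without vehicle replicate 3 and 0.00050 without vehicle replicate 4. Thus 2 genes were above 0 and *HSD11B1* below, and the median was 0.06 and ranged from -0.24 to 0.10 over all settings. The steroidogenic genes *CYP11A1*, *CYP11B1* and *STAR* failed the filter along with *HSD11B2*.

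In the list of CRH, vasopressin and ACTH signalling, 9 of 21 genes were named and 7 measured. There were 5 above 0 and 2 below, with a median of 0.39, where 58.1% of all tested probes were above 0 and their median was 0.04. *CRHR1*, among the 5, passed the filter through its treated arrays, so neither the count nor the median is read against those values. The list's median fell to 0.12 without estradiol sulphate replicate 2, to 0.19 without vehicle replicate 2 or 3, to 0.13 with quantile normalization and to 0.09 with normexp and quantile. *POMC*, the precursor of ACTH and of melanocortins, showed the largest difference, 1.28 (SE 0.69; limma adjusted p = 0.628). Its levels were 0.50, 3.39, 2.25 and 0.16 after estradiol sulphate and 1.13, -0.16, -0.51 and 0.73 in vehicle, so treated replicates 2 and 3 alone lay above every vehicle fetus. Without estradiol sulphate replicate 2 the difference was 0.67. *PCSK1*, the convertase that cuts POMC, was likewise highest in treated replicates 2 and 3, with treated levels of -3.49, -1.95, -2.28 and -2.95 and vehicle levels of -2.75, -3.71, -3.44 and -2.38, and differed by 0.40 (SE 0.38; adjusted p = 0.806). That difference was 0.17 without estradiol sulphate replicate 2 and 0.19 without vehicle replicate 2, and 0.68 and 0.64 without estradiol sulphate replicate 1 and vehicle replicate 4.

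*AVPR1B*, the vasopressin receptor of corticotrophs, differed by -0.15 (SE 0.12; limma adjusted p = 0.763), and by 0.09 on its other probe. *CRHBP*, which binds and sequesters CRH, varied more between fetuses than between groups: its levels were -1.72, 0.59, -0.60 and 0.57 after estradiol sulphate, and -0.07, -0.71, -0.90 and 0.68 in vehicle. The difference was -0.04 (SE 0.54; adjusted p = 0.992). *CRHBP* was chosen for its role beside *CRHR1*, outside the naming rule. *OXTR*, the oxytocin receptor, and *MC2R*, the ACTH receptor, failed the filter. The list's median was -0.06 with normexp and the 75th percentile.

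Below *CRHR1* lies the Gs and cyclic AMP cascade, of which 6 of 31 genes were named and all 6 measured. By brightest probe *FOS*, an immediate early gene driven by cyclic AMP among other signals, had the largest difference, 0.28 (SE 0.16, limma adjusted p = 0.647). Its levels were -0.01, -0.01, -0.05 and -0.24 in treated fetuses and -0.04, -0.55, -0.66 and -0.18 in vehicle. The other *FOS* probes differed by 0.20, -0.23 and 0.03, each well above background on only 1 vehicle array. The transcription factors *CREM* and *CREB1*, which bind cyclic AMP response elements, differed by 0.12 (SE 0.18) and 0.08 (SE 0.13), and *PRKAR1A*, a regulatory subunit of protein kinase A, by 0.06 (SE 0.12). The signs of all 3 turned under at least 4 settings. On other tested probes *CREM* differed by 0.31 and 0.18, *CREB1* by 0.17 and *PRKAR1A* by 0.33, and a further *CREM* probe failed the filter. In all 5 were above 0 and 1 below, with a median of 0.07 against 0.04 over all tested probes; without vehicle replicate 4 the median was 0.01, with 3 above and 3 below.

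Genes known to respond to corticosteroids formed the largest list, with 16 of 38 named and 14 measured. There were 11 above 0 and 3 below, where 58.1% of all tested probes were above 0, and the median was 0.24. The list was not split into genes that corticosteroids raise and genes they lower, so a sign does not stand for a response. None passed after adjustment. At an unadjusted p under 0.05, 4 were higher after estradiol sulphate and none lower, where the shares over all tested probes were 6.24% and 2.93%. Of the 4, *SCNN1A* and *PER1* passed the filter through their treated arrays and turned below 0 under another background correction. Neither this count, nor the 11 above 0, nor the list's median is therefore read against all tested probes.

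*SCNN1A*, the α subunit of the epithelial sodium channel and a classical aldosterone target, differed by 0.50 (SE 0.13; limma adjusted p = 0.427). Its levels were -4.82, -5.22, -5.07 and -5.11 after estradiol sulphate and -5.34, -5.62, -5.71 and -5.55 in vehicle. The probe was well above background on all 4 treated arrays and on only 1 vehicle array, so it passed the filter through the higher group, and the difference was -0.17 with normexp and the 75th percentile. *NFKBIA*, the inhibitor of NF-κB that glucocorticoids induce, had levels of 1.30, 0.42, 0.25 and 0.11 against -0.23, -0.25, 0.07 and -0.24. The list's 2 genes without overlap between the groups were *SCNN1A* and *NFKBIA*, both higher after estradiol sulphate, beside 3.29% of all tested probes. With *SCNN1A* so filtered, this count is not read against that share. The *NFKBIA* difference was 0.68 (SE 0.24, limma adjusted p = 0.502) and 0.42 without estradiol sulphate replicate 1.

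*PER1*, a clock gene with a glucocorticoid response element, differed by 0.42 (SE 0.18; limma adjusted p = 0.543). Among vehicle arrays 1 was well above background, and the difference was -0.34 with normexp and the 75th percentile. *TXNIP*, which binds thioredoxin and is induced by glucocorticoids in many cells, differed by 0.44 (SE 0.20; limma adjusted p = 0.545), with levels of 1.98, 1.12, 1.29 and 1.59 against 0.95, 0.85, 1.07 and 1.32. Treated replicate 1 was the highest of the 8 fetuses in *NFKBIA* and *TXNIP*, and its *HSD11B1* level was the lowest of the 8. These values describe 1 fetus, and a link between the genes was not tested. With normexp and the 75th percentile the list's median was -0.11, with 6 genes above 0 and 8 below.

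**Figure D4:**
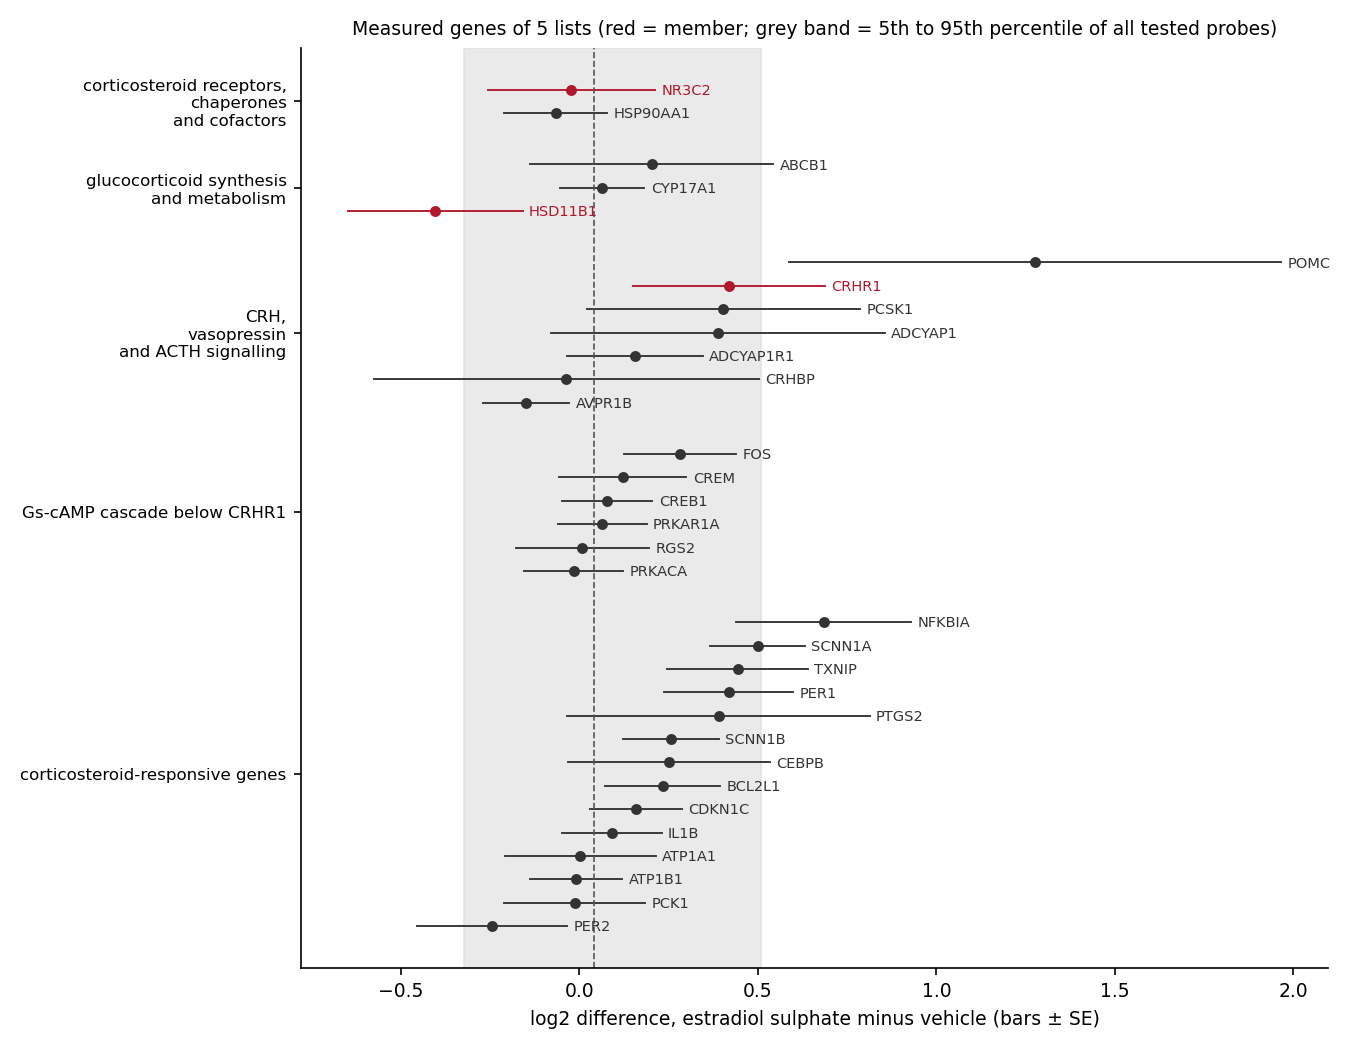
Log2 difference (estradiol sulphate minus vehicle, bars ± SE) of every measured gene of the 5 lists, members in red; the grey band spans the 5th to the 95th percentile of all tested probes, -0.32 to 0.51, and the dashed line is their median, 0.04. *POMC* and *NFKBIA* lie above the band and *HSD11B1* below it; *CRHR1* and *NR3C2* lie inside it.

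Markers of tissues and cell types were read beside these values, as the summed level of a list's measured genes in multiples of the array's 75th percentile. The hypothalamus sum ran from 14 to 43 after estradiol sulphate and from 22.6 to 37.3 in vehicle, with 7 genes above 0 and 4 below. At an unadjusted limma p under 0.05, 3 were higher and 1 lower, beside 6.24% and 2.93% of all tested probes. Of the 3, *AGRP* and *GHRH* were well above background on all 4 treated and 2 vehicle arrays. The pituitary sum ran from 18.2 to 28.3 after estradiol sulphate and from 15.6 to 30.1 in vehicle, with *FSHB*, *POU1F1* and *GNRHR* failing the filter along with *GH*. It was carried by *LHB*, at mean levels of 4.45 and 4.50, and does not show how the dimmer genes differ. Of the 6 measured, 4 were above 0 and 2 below, with differences from -0.40 to 1.815. The astrocyte sum was likewise carried by *AQP4*, and the meninges and fibroblast sum by *IGFBP2* and *DCN*. Meninges and fibroblast markers, 8 of 11 measured, ran from 9.06 to 13.6 and from 7.51 to 16.7, with 7 genes above 0, 1 below and a median difference of 0.44. At an unadjusted p under 0.05 there were 4 higher, beside 6.24% of all tested probes, and 3 had no overlap, beside 3.29%; *COL3A1* and *COL6A1*, both among these, were not well above background on any vehicle array and passed the filter through the treated ones. Endothelium markers, 5 of 12 measured, were all above 0 with a median of 0.21. Their sum ran from 1.19 to 2.07 after estradiol sulphate and from 0.978 to 1.22 in vehicle. Among them 1, *EDN1*, had an unadjusted limma p under 0.05, and *FLT1* and *TEK* failed the filter. Astrocyte markers, 5 of 8 measured and all above 0, ran from 21.6 to 43.5 and from 15.1 to 38.3. Of these 1, *SLC1A2*, had an unadjusted limma p under 0.05, beside 6.24% of all tested probes, and none kept its groups apart. Microglia and leukocyte markers, 4 of 10 measured with 2 above 0 and 2 below, ran from 2.14 to 3.22 and from 2.58 to 3.23. The blood marker *HBB* ran from 3.42 to 14.8 and from 3.17 to 11.6. Beside these counts, 58.1% of all tested probes were above 0, with a median of 0.04. The signs of the marker lists were not followed through the other settings. The choroid plexus marker *TTR* ran from 0.113 to 6.3 and from 0.536 to 0.755, and the thalamic marker *LEF1*, well above background on 1 vehicle array, from 0.0536 to 0.0778 and from 0.0249 to 0.0314. *LEF1* did not overlap between the groups and had the smallest limma adjusted p on the array, 0.24. It was well above background on all 4 treated arrays and passed the filter through them, so neither value is read as a result about tissue. Of 12 hippocampus, cortex and thalamus markers it was the only 1 measured. The marker genes named here were chosen after their values were seen. The part of these tissues in the members' values was not tested.

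Finally, the profiles of *NR3C2*, *HSD11B1* and *CRHR1* over the 8 arrays were set against the 645 named genes well above background on all arrays (644 for *NR3C2* and *HSD11B1*, which are among them), as the root mean square difference of centred log2 levels. For *NR3C2* the closest were *CBX5* at 0.17, *COL1A2* at 0.18 and *GRIA1* at 0.20, and its own probe 2 was closer than all of them at 0.14. For *HSD11B1* they were *HACD1* at 0.24, *ATOX1* at 0.25 and *BBC1* at 0.25, and probe 2 stood at 0.25 with 2 genes closer. For *CRHR1* they were *CAV1* at 0.20, *EEF1A1* and *PFK-L* at 0.21, with 3 of the *CRHR1* levels not well above background. None is given for *NR3C1*, which was not well above background on 6 of the 8 arrays. The 8 arrays share vehicle replicate 4 and the group labels, so these are descriptions of likeness and carry no test.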

How the data were processed

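Labelled RNA of 8 fetal hypothalami was read on 1-colour Agilent arrays. Per the file headers, the deposited processed intensity came from Feature Extraction 10.1.1.1, with background subtracted and no scaling between arrays. Some values near background are surrogates. Among the member spots these were the ones not flagged as positive and significant against background. Each spot also has a deposited p-value against background, which the software turned into its flags, per the file headers. A second table, the authors' log2 values, was tried as an alternative: 99.667% or more of its probes match log2 intensity less a single constant for that array (tolerance 0.001), whose origin the sources used here do not give. Its column medians ran from 0.0576 to 0.0750.

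Control and outlier-flagged spots were left out, spots of a probe averaged, and log2 intensity taken relative to each array's 75th percentile. A probe was well above background on an array where at least 50% of its spots were; 11748 probes so on at least 4 arrays were tested with limma 3.58.1 in R 4.3.3 (group only, two-sided, Benjamini-Hochberg, threshold 0.05), and 3260 were not. No spot was saturated. The number of arrays limits precision. The code was tested on simulated data. RefSeq's ARS-UI_Ramb_v3.0 table served for names: 1610 probes (10.7%) were named, some from the design's description. A gene of the receptor list is not reported here. Named genes are all member probes, the 4 smallest p per list, and the 3 closest profiles per member (left out for *NR3C1*, too dim). Members and lists were chosen with earlier results of these data known. Scaling, background, filter, prior, weights, replicate block and left-out arrays were varied. All arrays share 1 slide and 1 scan. The RNA had been stored for 7 years, per the labels.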

Additional observations from a re-analysis of the deposited data

Results flagged for a closer look

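In 4 of the 40 groups of 4 fetuses examined (the member probes and the named list genes), 1 fetus lay apart from the other 3 by more than Dixon's 95% critical value; chance gives about 1 in 20 groups. *CRHR1* was at -6.62 in vehicle replicate 4, where the other vehicle fetuses lay between -5.52 and -5.43. In vehicle replicate 4 no *CRHR1* spot was well above background and 2 held surrogate values. This flag thus rests on a value at the floor, and the size of the gap is not measured. *HSP90AA1* was at 2.70 in the same fetus, against 3.10 to 3.16. *FOS* was at -0.24 in estradiol sulphate replicate 4, against -0.05 to -0.01. *NFKBIA* was at 0.073 in vehicle replicate 3, against -0.251 to -0.233. Vehicle replicate 4 had the lowest intensity of the 8 arrays and a quality weight of 0.283, the lowest of all; its part in these values was not tested.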

How the results depend on the processing

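No probe and no member passed the adjusted threshold in any of the 21 alternative settings. *NR3C2* probe 1, at -0.02, turned to 0.007 with quantile normalization, 0.022 with cyclic loess and 0.218 with array weights, and ran from -0.192 to 0.138 with 1 array left out. *NR3C2* probe 2 ran from -0.046 to 0.253 with 1 array left out. *HSD11B1* probe 1 kept its sign in every setting; probe 2 turned to 0.058 with array weights and ran from -0.358 to 0.037 with 1 array left out. *CRHR1* was -0.25 with normexp and the 75th percentile, and 0.131 to 0.535 with 1 array left out. *NR3C1* ran from -0.336 to 0.226. The strictest filter leaves no value for *NR3C1*, *CRHR1*, *SCNN1A* and *PER1*.

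Of the other 14 named list genes, 7 turned sign somewhere; the cause was not tested. With quantile normalization *HSP90AA1* was 0.052, *CYP17A1* -0.012, *CREM* -0.014 and *CREB1* -0.034. With cyclic loess *HSP90AA1* was 0.052, *CYP17A1* -0.009, *CREM* -0.134 and *CREB1* -0.038. With median scaling *CYP17A1* was -0.040, *PRKAR1A* -0.039 and *CREB1* -0.026. With the authors' values *CYP17A1* was -0.241, *PRKAR1A* -0.041 and *CREB1* -0.027. After normexp and quantile *HSP90AA1* was 0.051, *CREB1* -0.042 and *PER1* -0.065. After normexp and the 75th percentile *CREM* was -0.137, *CREB1* -0.069, *SCNN1A* -0.165 and *PER1* -0.336. *PRKAR1A* was -0.024 with array weights. With 1 array left out *PRKAR1A* ran from -0.023 to 0.113, *CREM* from -0.029 to 0.200 and *CREB1* from -0.0011 to 0.141.

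The median over all tested probes moved by -0.104 with median scaling, -0.118 with normexp and the 75th percentile and -0.105 with the authors' values, and the share above 0 went from 58.1% to 38.3%, 33.1% and 38.0%. It was 49.4% with quantile normalization, 48.3% with cyclic loess and 50.1% with normexp and quantile. Unadjusted p-values under 0.05 went to 733 probes above 0 and 344 below. Median scaling gave 345 and 753, normexp and the 75th percentile 211 and 804, and the authors' values 344 and 760. With no filter 1185 were below 0, and array weights gave 1102 above. Above 0 there were 396 with quantile normalization, 448 with cyclic loess, 418 with normexp and quantile, and 477 with the strictest filter. Leaving out vehicle replicate 2 gave 474 above 0, and leaving out estradiol sulphate replicate 2 gave 178 below.

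With the replicate number as a block, 804 probes were above 0 and 354 below at that p, and none passed after adjustment. Same-numbered fetuses correlated at 0.237, -0.014, 0.191 and 0.247, and 3 of 4 matched their own number best. The labels do not tie equal numbers to co-twins, so the pairing was not used. Signal close to background limits *NR3C1* and *CRHR1*.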
